A study of Mus musculus with 6 samples.

Results

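The 9 genes followed here encode the signalling chains of the T-cell receptor and the proteins that act first after it: Cd3e, Cd3d, Cd3g, Cd247 (the zeta chain), Cd4, Lck, Zap70, Lat and Lcp2 (SLP76). They were taken by gene name from the arrays' own annotation, which gave 14 of the 41174 probes on the array, and all 14 were well above background on all 6 arrays. The antigen-binding chains of the receptor carry almost no signalling tail of their own and depend on the CD3 chains and the zeta chain, which hold immunoreceptor tyrosine-based activation motifs (ITAMs). When the receptor is engaged, the kinase LCK, brought in by the coreceptor CD4, phosphorylates these motifs. The kinase ZAP70 docks on them and in turn phosphorylates the scaffold proteins LAT and SLP76, from which calcium, RAS and protein kinase C signalling start.

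The genes were measured in T cells driven towards induced regulatory T (iTreg) cells with and without miR-31. The cells were naive CD4+CD25-Foxp3gfp-CD62Lhi T cells sorted from the spleens of 6-week-old mice on a C57BL/6 background, and came either from miR-31 fl/fl mice (control) or from miR-31 fl/fl CD4Cre mice (cKO). Both groups thus carried the floxed allele and the Foxp3gfp reporter used in the sort, and only the cKO group carried Cre, which is expressed under Cd4 regulatory elements and recombines in developing T cells, CD8+ cells included. Cd4 itself is one of the 9 genes. All cultures received plate-bound anti-CD3 (5 µg/ml), which engages the receptor complex studied here, soluble anti-CD28 (2 µg/ml), TGF-β1 (5 ng/ml) and IL-2 (40 ng/ml) for 4 days, and 0.5 µg of RNA per sample was read on a one-colour array, 3 per group. The tissue, strain and doses are those of the labels, whereas the study's methods name lymph nodes besides spleen as a source of T cells, the strain C57BL/6J and a lower dose of IL-2. The miRNA removed in the cKO cells has the mature sequence below, from RefSeq (GRCm38.p6, chr4:88910614-88910635, minus strand), with its seed, bases 2 to 8, in capitals.
mmu-miR-31-5p: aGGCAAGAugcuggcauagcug

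Levels are log2 signals from which the 75th percentile of the same array was subtracted, so that 0 is the signal at that percentile, and differences are cKO minus control. Between 49.3% and 57.7% of spots per array were well above background, no spot was saturated, and the arrays correlated with r of 0.948 to 0.984 between genotypes and 0.974 to 0.989 within them. The 3 cKO arrays and control 1 shared a slide, while control 2 and control 3 were on another. Of 22281 probes tested with limma, 54 had an adjusted p under 0.05, and the difference of the median probe was -0.04. The T-cell genes followed here and Foxp3 were above background on every array, but so were Cd8a and Cd8b1, which mark CD8+ T cells. Fewer cells of a type and less RNA per cell cannot be told apart in such bulk RNA.

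None of the 9 genes passed the adjusted threshold at its brightest probe, and none of the 14 probes did, with adjusted p-values between 0.17 and 0.72, where 0.148% of all tested probes were called higher and 0.0943% lower in cKO. At an unadjusted p under 0.05 there were 4 probes higher in cKO (Cd3d, Cd3g, the brighter Cd4 probe and the third Cd247 probe), where 11.5% of all tested probes were called in that direction. In the other direction there was 1 (the brighter Cd3e probe), against 11.4% of all tested probes. The methods' t-test gave 1 of the 14 at an unadjusted p under 0.05 and 0 after adjustment, against 4018 and 0 of all 22281 tested probes. The 5 probes fell to 2 without control 1, to 2 without control 2 and to 0 without control 3, and to 0 with the slide as a block. Over all tested probes the count fell as well, from 5120 to 3726, 3077, 2865 and 1646 in the same order. Of the 14, it was 5, 4 and 4 without cKO 1, 2 and 3. It was highest, at 7, with normexp correction and quantile normalization, where all tested probes gave 5378. The cKO and control arrays did not overlap for 5 probes that were higher in cKO, against 15.9% of all tested probes, and for 1 that was lower, against 20.7%. In simulated arrays of this number, 36% of 100 probes given a log2 difference of 1 reached an adjusted p under 0.05. Their noise was drawn independently for each probe and array, without a slide effect, so the share may differ for the real arrays.

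**Figure D1:**
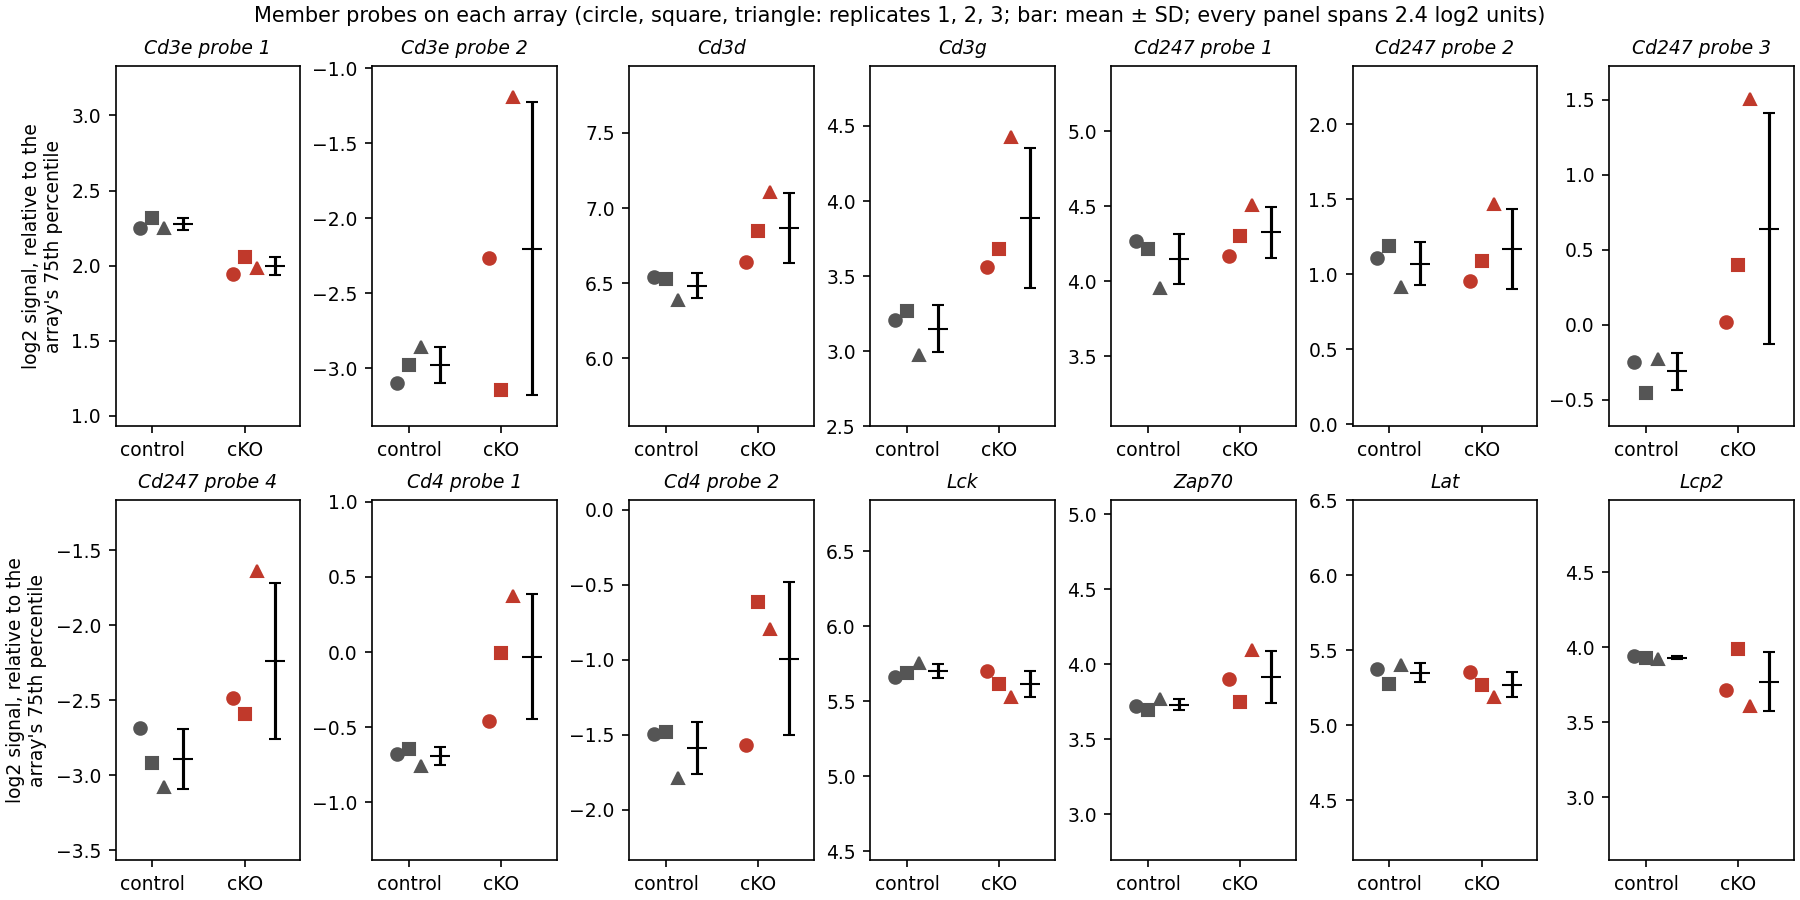
Level of the 14 probes (log2 units above or below the 75th percentile of the array, vertical axis) on the 3 control arrays (grey) and 3 cKO arrays (red), with the mean and SD of each group. All panels span the same range of log2 units, around different levels. The groups stand apart for Cd3d, Cd3g, Cd247 probes 3 and 4, Cd4 probe 1 and, in the other direction, Cd3e probe 1, and array cKO 3 is the highest cKO array in 9 of the 10 panels whose mean is higher in cKO, all but Cd4 probe 2.

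Among the CD3 chains, Cd3d and Cd3g were higher on all cKO arrays, while the brighter Cd3e probe was lower on all of them. A probe of each of Cd3d, Cd3g, Cd4 and Cd247 that lies in protein-coding sequence is given here, to show which part of the message it measured. For Cd247 this is the second probe by brightness, whose levels overlapped between the groups. Capitals mark a tyrosine codon, any 2 codons and a leucine or isoleucine codon, the unit that occurs in a pair in an ITAM, and were marked only in an open reading frame that held such a pair. The Cd3d, Cd3g and Cd247 probes are 60 bases long but span 232, 585 and 1019 bases of the genome, so that each joins neighbouring exons and reads spliced RNA, whereas the Cd4 probe lies within 60 contiguous bases. Positions are those of the array's annotation (mm9).
Cd3d, chr9:44794171-44794402: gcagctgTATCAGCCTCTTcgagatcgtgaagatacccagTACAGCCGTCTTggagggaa
Cd3g, chr9:44781716-44782300: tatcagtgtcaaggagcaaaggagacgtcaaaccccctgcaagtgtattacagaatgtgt
Cd247, second probe, chr1:167786567-167787585: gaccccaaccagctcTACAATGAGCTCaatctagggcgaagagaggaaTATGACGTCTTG
Cd4, brighter probe, chr6:124817706-124817765: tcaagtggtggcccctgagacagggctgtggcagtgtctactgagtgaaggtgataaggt

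Cd3d, which encodes the δ chain that pairs with CD3ε, had levels of 6.64, 6.85 and 7.11 on cKO 1, 2 and 3 and of 6.54, 6.53 and 6.38 on control 1, 2 and 3. All cKO arrays lay above all control arrays, although cKO 1 exceeded control 1 by little. The difference was 0.38 ± 0.14 (SE, 3 arrays per group), or 1.30-fold (95% interval on the log2 scale 0.03 to 0.73, limma adjusted p = 0.20). Within the slide that held both genotypes it was 0.33.

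Cd3g, which encodes the γ chain, also paired with CD3ε, had levels of 3.56, 3.68 and 4.42 in cKO and of 3.21, 3.27 and 2.97 in control. The groups did not overlap, and array cKO 3 stood above the other cKO arrays. The difference was 0.74 ± 0.25 (SE), or 1.67-fold (interval 0.14 to 1.33, limma adjusted p = 0.18). It was 0.68 within the shared slide and 0.47 without cKO 3.

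Cd3e encodes the ε chain, which is part of both CD3 pairs. Its brighter probe, at chr9:44807254-44807313, had levels of 1.94, 2.06 and 1.98 in cKO and of 2.25, 2.32 and 2.25 in control, so that all cKO arrays were lower and the arrays of each group lay close together. The difference was -0.28 ± 0.09 (SE), or 0.823-fold (interval -0.51 to -0.05, limma adjusted p = 0.18). The dimmer probe, at chr9:44811984-44812043, is annotated to a cDNA clone rather than to the RefSeq transcript, and neither Cd3e probe had an open reading frame in its 60 bases. Its levels were -2.26, -3.15 and -1.19 in cKO and -3.10, -2.98 and -2.86 in control, with cKO 2 below every control array and cKO 3 far above. Its difference of 0.78 ± 0.47 (SE, limma adjusted p = 0.34) had the opposite sign, and became 1.25 without cKO 2 and 0.27 without cKO 3. The mean of the 2 probes, 0.25, therefore also had the opposite sign to the brighter probe.

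Cd3g, Cd3d and Cd3e lie next to each other on chromosome 9, with no other protein-coding gene of the RefSeq table between them. The starts of Cd3d and Cd3g are 1355 bases apart and face away from each other, whereas that of Cd3e is 27825 bases from that of Cd3d. As 2 of these neighbours were higher and the brighter probe of the other lower in cKO, the 250 bases before each start are given (RefSeq, GRCm38.p6). Capitals mark AGGAAG, a form of the core read by ETS-family factors, and CAGGTG, a form of the E-box read by E proteins, on either strand (CTTCCT and CACCTG). No 2 matches overlapped.
Cd3d, plus strand, chr9:44981536-44981785: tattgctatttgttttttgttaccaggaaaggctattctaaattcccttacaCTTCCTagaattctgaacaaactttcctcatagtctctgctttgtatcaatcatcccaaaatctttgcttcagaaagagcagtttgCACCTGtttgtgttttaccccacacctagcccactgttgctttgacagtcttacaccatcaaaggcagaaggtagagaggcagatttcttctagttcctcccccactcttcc
Cd3g, minus strand, chr9:44980432-44980681: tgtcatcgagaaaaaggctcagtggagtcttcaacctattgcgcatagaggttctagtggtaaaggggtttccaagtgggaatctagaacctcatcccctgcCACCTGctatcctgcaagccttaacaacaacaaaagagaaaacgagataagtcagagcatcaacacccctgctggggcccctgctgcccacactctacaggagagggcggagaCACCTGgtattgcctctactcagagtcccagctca
Cd3e, minus strand, chr9:45009612-45009861: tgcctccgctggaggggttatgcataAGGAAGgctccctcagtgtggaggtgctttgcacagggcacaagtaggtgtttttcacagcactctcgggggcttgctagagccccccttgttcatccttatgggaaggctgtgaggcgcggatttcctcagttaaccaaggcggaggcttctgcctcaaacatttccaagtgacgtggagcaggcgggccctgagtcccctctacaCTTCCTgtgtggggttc

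AGGAAG had 1 match before Cd3d, 2 before Cd3e and 0 before Cd3g, and 29.5% of the 32851 windows of this length in the table held it. CAGGTG had 1 match before Cd3d, 2 before Cd3g and 0 before Cd3e, and 17.2% of all windows held it. A form of the RUNX motif, TGTGGTT, was in none of the 3 windows on either strand and in 4.40% of all. These matches describe the letters only.

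Cd247, which encodes the zeta chain with its 3 ITAMs in each copy, had 4 probes, of which 2 overlapped between the groups and 2 did not. The brightest, at chr1:167791855-167791914, had levels of 4.17, 4.30 and 4.51 in cKO and of 4.27, 4.22 and 3.96 in control, which overlapped. Its difference was 0.18 ± 0.14 (SE, interval -0.16 to 0.52, limma adjusted p = 0.45), which became 0.0884 without cKO 3 and 0.0845 without control 3. The second probe, which joins exons and holds a pair of tyrosine units, overlapped as well, with a range of 0.96 to 1.47 in cKO against 0.91 to 1.19 in control and a difference of 0.10 ± 0.17 (SE, limma adjusted p = 0.72).

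The other 2 Cd247 probes lie further along the chromosome and separated the groups. The third, at chr1:167807278-167807337 and annotated to an Ensembl transcript of its own, had levels of 0.02, 0.40 and 1.50 in cKO and of -0.25, -0.46 and -0.23 in control. Array cKO 3 was more than 1 log2 unit above the other cKO arrays, and the difference of 0.95 ± 0.37 (SE, limma adjusted p = 0.21) became 0.52 without it. The dimmest, at chr1:167797296-167797355, ranged from -2.59 to -1.64 in cKO and from -3.08 to -2.68 in control, with a difference of 0.65 ± 0.27 (SE, limma adjusted p = 0.22) and of 0.35 without cKO 3. Whether the 4 probes differed from each other in their response was not tested.

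**Figure D2:**
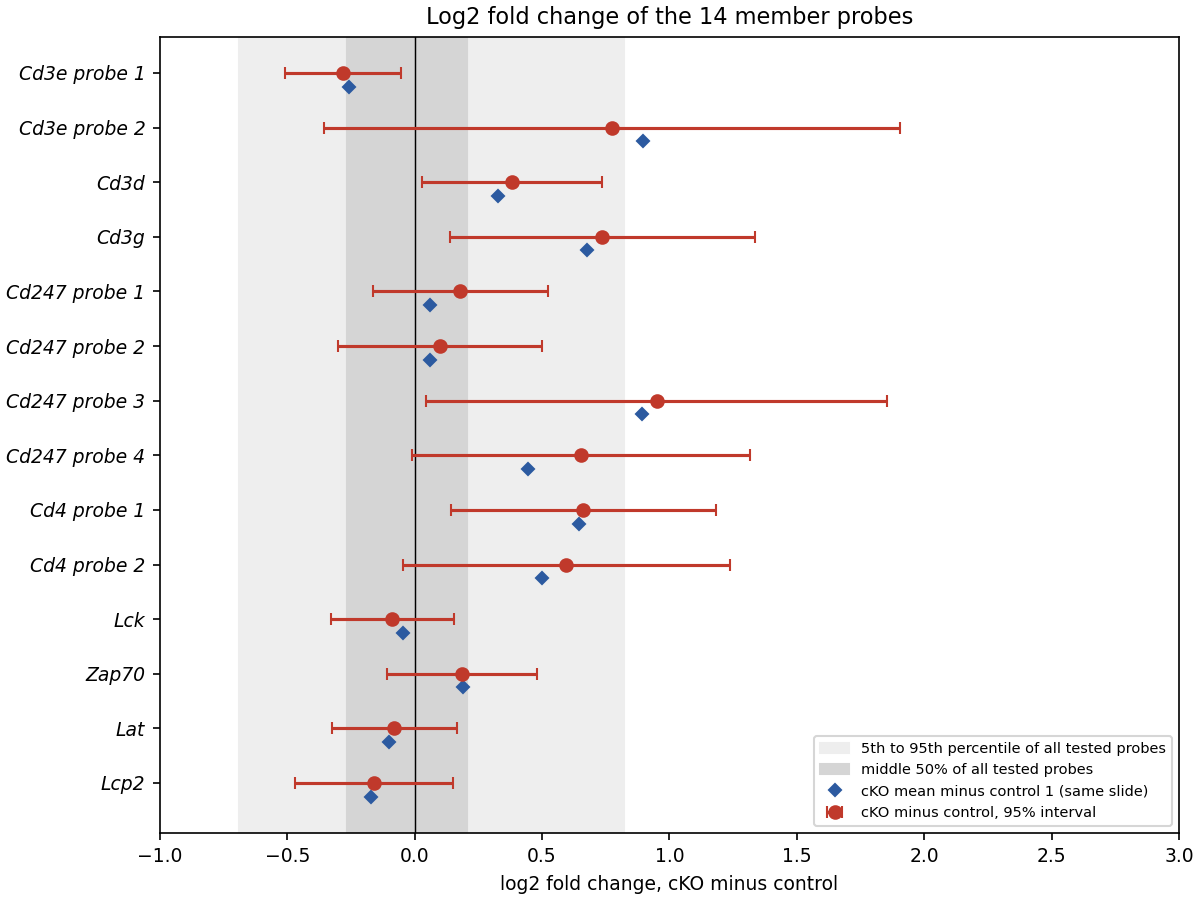
Log2 fold change, cKO minus control, of the 14 probes (horizontal axis, red points with 95% intervals from limma) and the mean of the cKO arrays minus control 1, the control on the same slide (blue diamonds, without an error since 1 control array is available). The bands are the middle 50% (-0.27 to 0.21) and the 5th to 95th percentile (-0.69 to 0.82) of all tested probes. The third Cd247 probe alone lies outside the wider band, and every diamond has the sign of its point.

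Cd4, the coreceptor that binds MHC class II and delivers LCK, had a higher mean in cKO at both of its probes. The brighter probe, spotted 10 times on each array, had levels of -0.46, -0.01 and 0.37 on cKO 1, 2 and 3 and of -0.68, -0.65 and -0.76 on control 1, 2 and 3. The control arrays lay close together and all cKO arrays were above them, by amounts that varied between the cKO arrays (SD 0.42 against 0.06, n = 3 each). The difference was 0.66 ± 0.21 (SE), or 1.58-fold (interval 0.14 to 1.18, limma adjusted p = 0.17), 0.65 within the shared slide and 0.46 without cKO 3. With array weights, which gave array cKO 3 the lowest weight (0.173), its adjusted p was 0.046, the only one of the 9 genes under 0.05 in any of the alternatives, whose adjusted p for this probe ranged up to 0.73. That setting called 5.46% of all tested probes higher in cKO, and 2205 in either direction. The second probe, at chr6:124815401-124815459, had levels of -1.57, -0.61 and -0.80 in cKO and of -1.50, -1.48 and -1.79 in control. Array cKO 1 lay among the controls there, and the difference was 0.59 ± 0.26 (SE, limma adjusted p = 0.23).

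The 4 genes that act after the receptor had overlapping levels. Lck, the kinase that phosphorylates the ITAMs, had levels of 5.70, 5.61 and 5.53 in cKO and of 5.66, 5.69 and 5.76 in control, which overlapped. Its difference was -0.09 ± 0.10 (SE, interval -0.33 to 0.15, limma adjusted p = 0.60). Zap70 ranged from 3.75 to 4.10 in cKO and from 3.70 to 3.77 in control, with cKO 2 within the control range and a difference of 0.19 ± 0.12 (SE, interval -0.11 to 0.48, limma adjusted p = 0.37), which became 0.0945 without cKO 3.

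Lat, the membrane scaffold phosphorylated by ZAP70, ranged from 5.19 to 5.36 in cKO and from 5.28 to 5.40 in control, and its difference of -0.08 ± 0.10 (SE, interval -0.32 to 0.17, limma adjusted p = 0.64) was the smallest of the 14. Lcp2, whose product SLP76 joins LAT through the adaptor GADS, had levels of 3.71, 3.99 and 3.60 in cKO and of 3.94, 3.93 and 3.92 in control. The control arrays were almost equal and the cKO arrays lay on both sides of them, with a difference of -0.16 ± 0.13 (SE, interval -0.47 to 0.15, limma adjusted p = 0.46), -0.27 without cKO 2 and -0.077 without cKO 3. None of these 4 intervals reached a change of 0.5 on the log2 scale, whereas those of Cd3g and Cd4 extended past 1. A p above the threshold does not show that the levels were equal.

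Some of the smaller differences changed sign with the processing. With normexp correction and scaling to the 75th percentile, the median of all tested probes moved from -0.04 to 0.11. Relative to that median, Cd3g was at 0.40, the brighter Cd4 probe at 0.45 and the third Cd247 probe at 0.61, but Cd3d was at 0.02, the brightest Cd247 probe at -0.14, Zap70 at -0.09, Lck at -0.44, Lat at -0.41, Lcp2 at -0.47 and the brighter Cd3e probe at -0.62. In all, 7 of the 14 probes lay above the median of all probes under that setting, against 10 as first computed and 9 to 12 under the other alternatives.

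**Figure D3:**
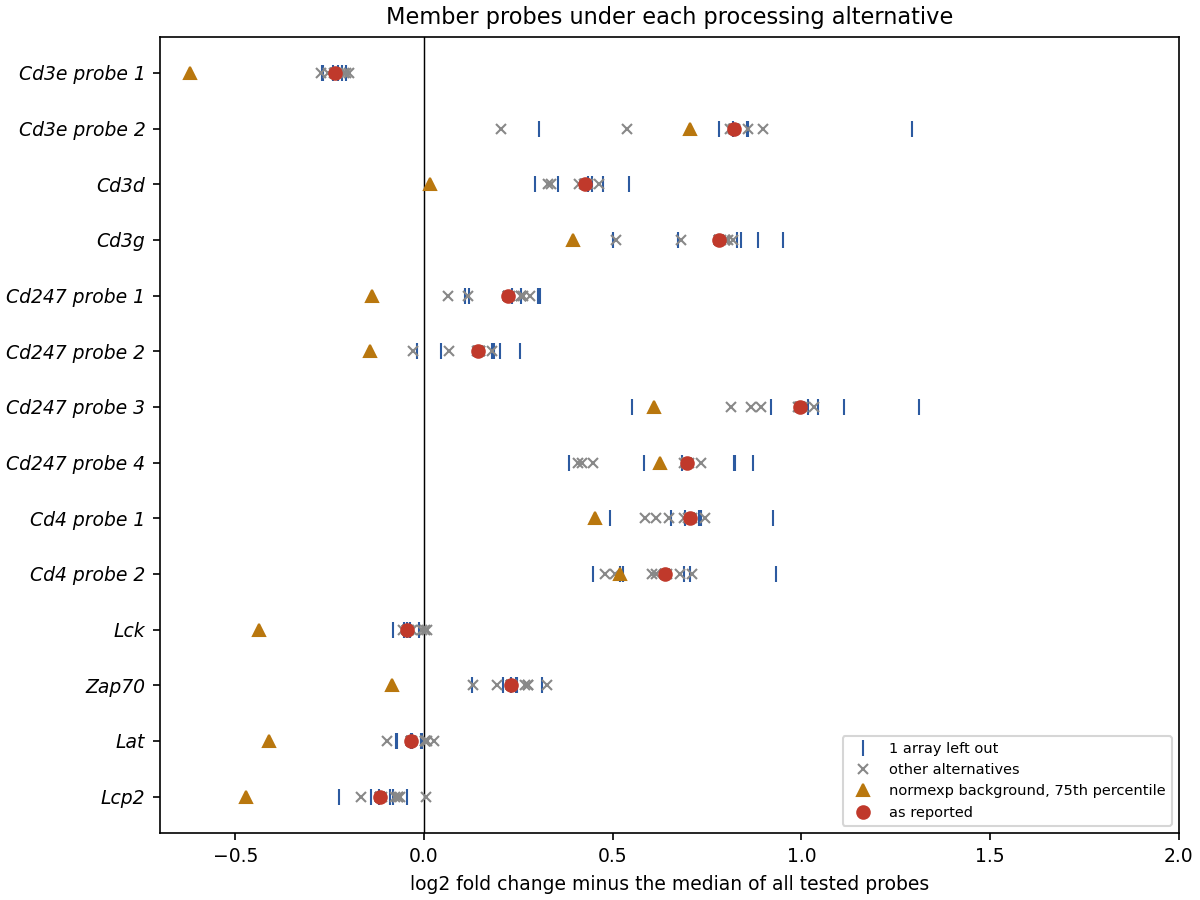
Log2 fold change of each of the 14 probes minus the median of all tested probes (horizontal axis) as reported (red circles), with 1 array left out (blue ticks), with normexp background and 75th-percentile scaling (brown triangles) and under the other alternatives (grey crosses). Cd3g, both Cd4 probes, the 2 dimmer Cd247 probes and the second Cd3e probe stay to the right of 0 throughout, the brighter Cd3e probe stays to the left, and Cd3d comes to 0.02 under the normexp setting.

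Of 72 other genes of T-cell receptor signalling, 68 were on the array and 66 could be tested. None had an adjusted p under 0.05 at its brightest tested probe. At an unadjusted p under 0.05, 13 were higher and 2 lower in cKO, against 11.5% and 11.4% of all tested probes. The methods' t-test gave 13 of the list and 4018 of all tested probes at that level, and 0 of either after adjustment. The 15 fell to 9 without control 2, to 8 without control 3 and to 2 with the slide as a block. All tested probes fell from 5120 to 3077, 2865 and 1646 there. The list gave 11 without control 1, and 18, 13 and 15 without cKO 1, 2 and 3. With array weights it gave 23, and all tested probes 7566. The groups did not overlap for 20 that were higher and 4 that were lower, against 15.9% and 20.7% of all tested probes. The median difference was 0.11, against -0.04 over all tested probes and 0.18 over the 9 genes' brightest probes, and was -0.06 with normexp correction and 75th-percentile scaling and 0.02 without cKO 3.

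Among the receptor and coreceptor chains, of which 7 were tested with a median of 0.01, Cd8a had the difference farthest from 0 of the whole list on the lower side. The CD8α coreceptor chain had levels of 0.51, -0.29 and -1.02 in cKO and of 1.00, 0.20 and 0.58 in control. The groups overlapped, cKO 3 was lowest, and the difference was -0.86 ± 0.41 (SE, limma adjusted p = 0.25), opposite in sign to that of Cd4. It became -0.49 without cKO 3 and -0.54 with normexp correction and 75th-percentile scaling. Cd8b1, which encodes the other CD8 chain and was brighter, had levels of 1.40, 1.61 and 1.94 in cKO and of 1.74, 1.71 and 2.04 in control. The groups overlapped there too, but cKO 3 was the highest cKO array, and the difference was -0.18 ± 0.18 (SE, limma adjusted p = 0.55). Cd8a and Cd8b1 together, summed on a linear scale relative to the 75th percentile, came to 3.87 to 4.34 in cKO and 4.42 to 5.61 in control. Their part in the Cd4 difference was not tested.

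The kinases (3 tested, median -0.23) included Fyn, the SRC-family relative of Lck, at -0.23 ± 0.10 (SE), with all cKO arrays lower. Tec, outside the rule for naming genes and named after its value was seen, had the lowest adjusted p of the list. Its levels were 0.04, 0.07 and -0.08 in cKO and -0.67, -0.87 and -0.74 in control, well apart, with a difference of 0.77 ± 0.11 (SE, limma adjusted p = 0.066) and 0.68 within the shared slide.

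Among 17 adaptors and exchange factors (median 0.14), Grap2, which encodes the adaptor GADS that links SLP76 to LAT, was lower on all cKO arrays, at 2.94, 2.84 and 2.71 against 3.17, 3.23 and 3.55 in control. The difference was -0.49 ± 0.14 (SE, limma adjusted p = 0.16), while the levels of Lat and Lcp2, its partners, overlapped. Trat1, a transmembrane adaptor of the receptor complex, was at 0.38 ± 0.29 (SE), Fyb, which encodes the adaptor ADAP, at 0.36 ± 0.37 (SE) and the exchange factor Vav1 at -0.11 ± 0.11 (SE), all with overlap. Trat1 became 0.69 without cKO 1 and 0.18 without cKO 3. Fyb ranged from 4.71 on cKO 1 to 6.21 on cKO 3, and Vav1 became -0.031 without cKO 3.

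The 16 phosphatases, regulatory kinases and inhibitors had the highest median of the roles, 0.19, and contained the 2 largest differences of the list. Cblb, which encodes a ubiquitin ligase that restrains T-cell activation, had levels of -0.41, -0.24 and 0.68 in cKO and of -0.79, -0.91 and -1.41 in control, with no overlap and a difference of 1.05 ± 0.32 (SE, limma adjusted p = 0.16). Sla, which encodes the adaptor SLAP that lowers receptor levels on thymocytes, had levels of 3.15, 3.47 and 3.70 in cKO and of 2.84, 2.59 and 1.91 in control, again with no overlap, and a difference of 0.99 ± 0.27 (SE, limma adjusted p = 0.15). The lowest control array of both genes was control 3 and the highest cKO array cKO 3. Dgka, which encodes a kinase that removes diacylglycerol, was at 0.47 ± 0.21 (SE) and higher on all cKO arrays, with 0.24 without cKO 3 and 0.19 with normexp correction and 75th-percentile scaling. Csk, the kinase that inhibits LCK, was at -0.21 ± 0.09 (SE) and lower on all of them, while the phosphatase Ptprc (CD45) at 0.11 ± 0.13 (SE) and Ubash3a at 0.14 ± 0.13 (SE) overlapped.

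Among 23 enzymes and channels downstream (median 0.07), Itpr1, which encodes a calcium release channel opened by IP3, had levels of 1.50, 1.70 and 2.17 in cKO and of 1.19, 1.00 and 0.40 in control. The groups did not overlap, and the difference was 0.92 ± 0.26 (SE, limma adjusted p = 0.15), with 0.60 within the shared slide. Plcg1, which encodes the phospholipase that LAT recruits, was at 0.27 ± 0.19 (SE) and at 0.077 without cKO 3, Prkcq (protein kinase Cθ) at 0.02 ± 0.15 (SE), Rasgrp1, a RAS activator, at 0.03 ± 0.17 (SE) and Nfatc1 at -0.23 ± 0.15 (SE), each with overlap.

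**Figure D4:**
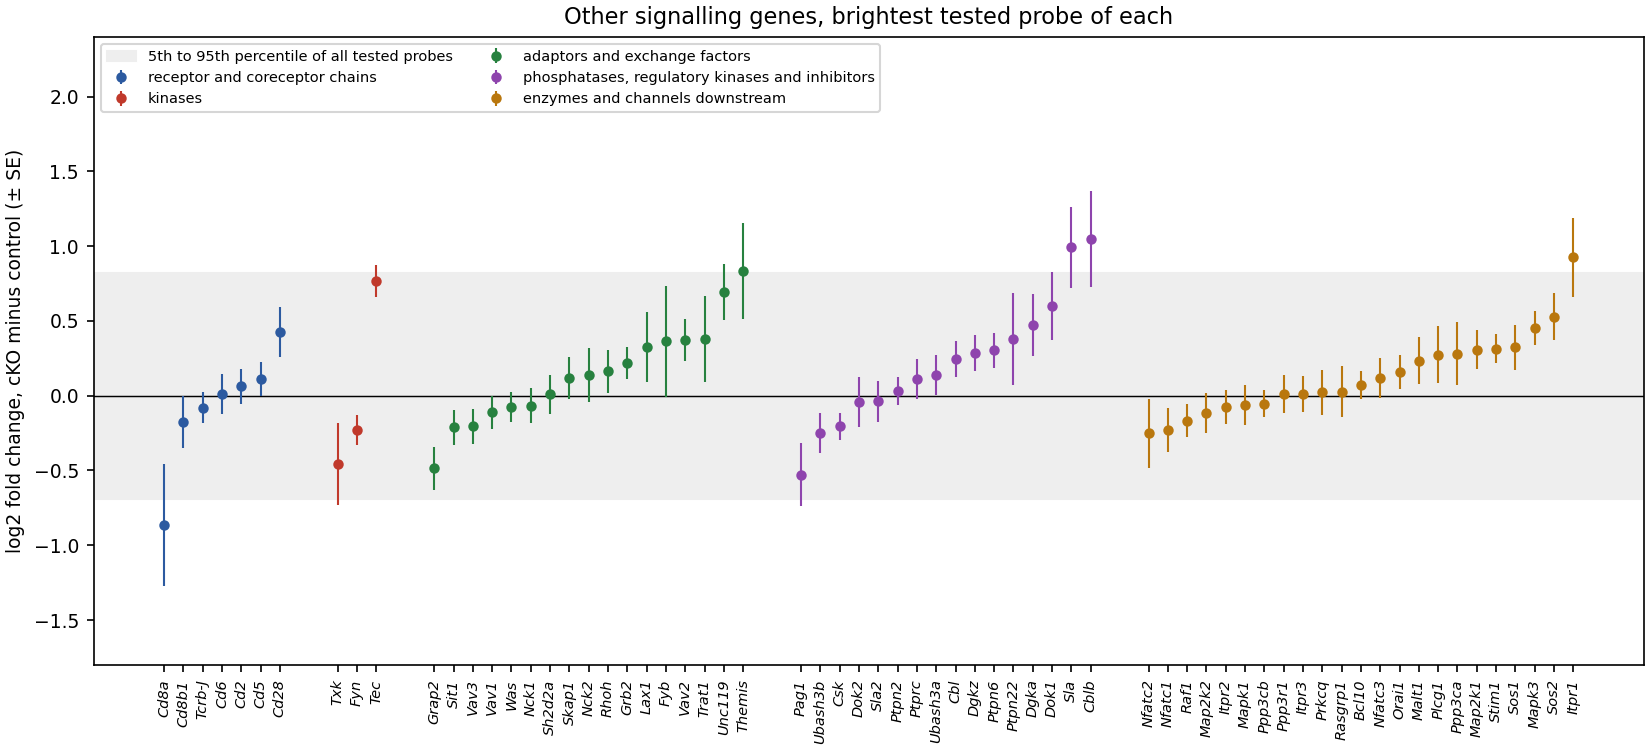
Log2 fold change, cKO minus control, with its SE (vertical axis) of the brightest tested probe of 66 other signalling genes, grouped by role and ordered within it. The band is the 5th to 95th percentile of all tested probes (-0.69 to 0.82). Cblb at 1.05, Sla at 0.99 and Itpr1 at 0.92 are the highest values and Cd8a at -0.86 the lowest.

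The ranges of the summed levels of the NK-cell, erythroid, naive T-cell and CD8 lists did not overlap between the groups, those of the B-cell, myeloid and regulatory T-cell lists did, and no test was run on them. Of 6 B-cell genes on the array, Cd79b alone was above background on at least 3 arrays, and the summed level of the list was 0.557 to 1.28 in cKO and 0.392 to 0.634 in control, with Pax5 and Blk above background on no array. Of 8 myeloid genes 3 and of 4 erythroid genes 1 were above background on at least 3 arrays, with summed levels of 0.292 to 1.41 against 0.432 to 0.474 and of 0.480 to 1.05 against 0.195 to 0.381. The myeloid range mostly followed Fcgr3, at -5.62, 0.08 and 0.08 on cKO 1, 2 and 3 and -2.15, -2.36 and -6.02 in control. Cd68 was higher on all cKO arrays, with means of -2.61 in cKO and -3.25 in control, and Csf1r overlapped, at -4.24 and -4.39. That erythroid gene was Hbb-b1, whose brightest probe had a mean log2 level of -0.79 in cKO and -2.89 in control. Hba-a1, above background on 2 arrays, went the other way, at -5.61 and -3.73, and was lower on all cKO arrays. Of 4 NK-cell genes, Klrd1 and Nkg7 were above background, the defining Klrb1c was on no array, and the summed level was 57.2 to 59.9 in cKO and 25.6 to 45.8 in control. This sum mostly followed Nkg7, whose brightest probe had a mean log2 level of 5.71 in cKO and 5.11 in control. Klrd1 was at 2.20 and 0.32, with overlap between the groups. All 6 naive T-cell genes were above background, at 99.8 to 143 in cKO and 86.9 to 99.2 in control, and so were all 6 regulatory T-cell genes, at 181 to 205 and 140 to 185. Foxp3, the defining factor of regulatory T cells, was at 3.16, 3.12 and 2.45 in cKO and 3.42, 3.42 and 3.76 in control. Il2ra also had a lower mean in cKO at its brightest probe, with a difference of -0.56 and overlap. The rest of that list had higher means there: Ctla4 by 0.94, Itgae by 0.85, Ikzf2 by 0.51 and Tnfrsf18 by 0.40. Of these probes, Ctla4 alone did not overlap between the groups. Tnfrsf18 was the brightest of the list and weighed most in its sum. The part of these cell types in the differences of the 9 genes was not tested.

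The profile of the CD3 chains over the 6 arrays, taken as the mean of the brightest Cd3e, Cd3d, Cd3g and Cd247 probes, was set against 11345 named genes outside the lists. This mean was highest on cKO 3, at 4.50, and lowest on control 3, at 3.89. The Cd3e probe in it went the other way, being lower on all cKO arrays than on any control array. The closest by Pearson's r were Thnsl1 (0.997), Kdm4b (0.996), Iqsec1 (0.996), Camk4 (0.995) and Pcgf1 (0.994), over 6 arrays that shared slides and cultures with the profile itself. All 5 had their highest level on cKO 3 and their lowest on control 3, as the profile had. Camk4, a calcium-dependent kinase, ranged from 2.98 to 4.20 in cKO and from 2.29 to 2.84 in control. These values of r are given as a description of 6 points.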

How the data were processed

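RNA of 3 cKO and 3 control iTreg samples was read on 6 one-colour Agilent arrays. The labels do not say whether the samples of a group came from separate mice, but the study's methods name 3 mice of each genotype as the source. The p-values measure the spread between these samples. Per the file headers and labels, the authors extracted each spot with Agilent Feature Extraction (version 10.7.3.1 in the headers, 9.1 in the labels), and the deposited intensities are linear, background-subtracted signals that are not normalized between arrays. A deposited table of log2 values, with column medians of 6.15, was read as quantile-normalized and used as an alternative.

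Log2 processed signals minus each array's 75th percentile were used, with the spots of a probe averaged without outlier spots (123 to 140 per array). A probe was tested where at least 3 of the 6 arrays had it well above background, with limma 3.58.1 in R 4.3.3, Benjamini-Hochberg adjustment over all 22281 tested probes and a threshold of 0.05. The number of arrays limits the precision. The fit was tested on simulated data of 22262 probes, with noise drawn independently for each probe and array. In these, 36% of probes changed by 1 and 92% of those changed by 3 on the log2 scale passed, with 7 unchanged ones. Python 3.11.15, pandas 2.3.3, numpy 2.4.6, matplotlib 3.10.9 and statmod 1.5.0 were also used.

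The members, lists and naming rule were chosen with earlier results of these data known. Named were every probe of the 9 genes, 14 listed signalling genes, any with an adjusted p under 0.05, the 4 largest differences of the signalling list and the 5 genes most like the CD3 profile. Of the signalling list, 2 genes are not reported here and were left out of its counts, without regard to their values. A gene was given by its brightest tested probe. Of the 14 probes, 11 matched RefSeq by accession. Probe sequences and positions (mm9) are from the array files. Alternatives covered the background correction (normexp, offset 50), scaling, the log2 table, the filter, the methods' t-test, trend and robust eBayes, array weights, slide and replicate blocks, each array left out, the mean over a gene's probes and an adjusted p under 0.10.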

Additional observations from a re-analysis of the deposited data

How the results depend on the processing

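The count of the 9 genes with an adjusted p under 0.05 stayed at 0 under every alternative except array weights, which gave 1 (Cd4). That of all tested probes, 54 as reported, was 112 with normexp correction and quantile normalization, 174 over probes above background on all arrays, 105 with trend and robust eBayes, 2205 with array weights, 457 at an adjusted p under 0.10 and 28 with quantile normalization or the authors' log2 table. It was 0 with normexp correction and 75th-percentile scaling, without a filter, with the methods' t-test, with the slide as a block and with the replicate block, and ranged from 0 to 1 with 1 array left out (1 without control 1). The signalling list gave 1 gene, Tec, over probes above background on all arrays, with trend and robust eBayes and at an adjusted p under 0.10, and 6 with array weights (Tec, Unc119, Pag1, Mapk3, Stim1 and Sos2).

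Some signs turned. Cd3e, negative at its brighter probe, became 0.25 as a mean over its probes. With normexp correction and 75th-percentile scaling, Cd247 came to -0.031 and its second probe to -0.036, Ptprc to -0.12, Prkcq to -0.27 and Rasgrp1 to -0.19. With array weights, the second Cd247 probe came to -0.062, Prkcq to -0.13 and Rasgrp1 to -0.10. Normexp correction with quantile normalization gave Lat 0.0006 and Prkcq -0.026. With 1 array left out, the lowest values, all without cKO 3, and the highest were -0.050 and 0.21 for the second Cd247 probe, -0.0058 and 0.20 for Ptprc, -0.027 and 0.72 for Fyb, -0.11 and 0.16 for Prkcq, and -0.15 and 0.14 for Rasgrp1. The cause was not tested. The replicate numbers did not pair the samples (r of deviations -0.144, 0.008 and -0.186). With the replicate block, 3 of the 14 probes and 3627 of all 22281 tested probes had an unadjusted p under 0.05. With 3 arrays per group and the slide partly tied to genotype, intervals were widest for Cd3g, Cd4 and the dimmer Cd3e and Cd247 probes.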

Other observations

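The antigen-binding chains that the CD3 chains accompany are on the array under Ensembl transcript names and were looked up by their description after the data were seen. The T cell receptor β constant region 1 differed by 0.10 ± 0.10 (SE) and 0.09 ± 0.10 (SE) at its 2 probes and constant 2 by 0.12 ± 0.12 (SE), but these regions are nearly identical and may share signal. The α constant region had levels of 1.91, 3.11 and 2.30 on cKO 1, 2 and 3 and of 2.03, 2.01 and 2.04 on control 1, 2 and 3, with cKO 1 below every control, and a difference of 0.42 ± 0.30 (SE, limma adjusted p = 0.41). The γ constant region, part of the receptor of γδ T cells, was lower on all cKO arrays, at -1.77, -2.83 and -3.67 against -0.42, -0.94 and -0.89, a difference of -2.01 ± 0.47 (SE, limma adjusted p = 0.12) and of -2.34 within the shared slide.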
